A study of Mus musculus with 8 samples.

Results

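The tubulin isotypes described here are 10 mouse genes, the 5 alpha-tubulin genes Tuba1a, Tuba1b, Tuba1c, Tuba4a and Tuba8 and the 5 beta-tubulin genes Tubb2a, Tubb2b, Tubb4b, Tubb5 and Tubb6. They were found by matching the Ensembl identifiers of the count tables to gene symbols, and all 10 were present among 22880 counted genes. The data are read counts per gene from RNA-seq of the soleus, a calf muscle rich in slow fibres, with 4 mice of each genotype, control and Dnm2 wt/K562E. All were males of 2 months on a background given as C57BL/6 in the labels and C57bl/6 J in the methods. Controls were Dnm2 +/+, either littermates or matched for age. Dnm2 wt/K562E mice were heterozygous for a K562E point mutation placed by homologous recombination in the endogenous gene of dynamin 2, the GTPase that cuts membrane vesicles free, so that every cell carries the allele, and a LoxP site was left in a neighbouring intron. The comparison asks which tubulin messages differ in muscle that carries the mutant allele.

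Microtubules are hollow polymers of alpha- and beta-tubulin heterodimers. Vertebrates encode each subunit in several genes, the isotypes, whose proteins are nearly identical in the globular body and differ mostly in the acidic carboxy-terminal tail that lies on the outside of the polymer. Enzymes act on this tail by removing and restoring the last tyrosine of alpha-tubulin or by adding glutamate chains. In skeletal muscle, microtubules form a lattice beneath the sarcolemma and around nuclei, where they position nuclei and organelles. Free tubulin also limits its own synthesis, since the factor TTC5 recognizes nascent tubulin chains and leads to decay of their messages.

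The tail is where the isotypes differ most, so the last coding bases of 6 members are shown here for comparison, from the GENCODE M21 transcripts (build GRCm38). Each line gives 60 bases before the stop codon, 5′ to 3′ on the coding strand, with the last codon in capitals.
Tuba4a (chr1:75215625-75215684, minus strand): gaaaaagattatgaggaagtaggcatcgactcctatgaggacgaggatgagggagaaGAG
Tuba8 (chr6:121226017-121226076, plus strand): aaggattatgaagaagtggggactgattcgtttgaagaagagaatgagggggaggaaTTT
Tubb2a (chr13:34074471-34074530, minus strand): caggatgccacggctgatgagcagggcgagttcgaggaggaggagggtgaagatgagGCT
Tubb2b (chr13:34127474-34127533, minus strand): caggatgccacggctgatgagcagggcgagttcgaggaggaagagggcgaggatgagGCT
Tubb4b (chr2:25222311-25222370, minus strand): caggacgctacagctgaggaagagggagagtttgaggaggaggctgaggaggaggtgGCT
Tubb5 (chr17:35834985-35835044, minus strand): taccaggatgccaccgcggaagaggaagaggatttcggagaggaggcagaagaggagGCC
The last codon GAG of Tuba4a stands for glutamate and TTT of Tuba8 for phenylalanine, so that neither encodes the terminal tyrosine that tail enzymes remove and restore. In the beta members shown, GCT and GCC stand for alanine.

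The members lie on 7 chromosomes. Tuba1b (chr15:98931425-98934565), Tuba1a (chr15:98949837-98953703) and Tuba1c (chr15:99029891-99038110) form a cluster, as do Tubb2a (chr13:34074274-34078007) and Tubb2b (chr13:34126748-34130466). Tuba4a lies at chr1:75214228-75219865, Tuba8 at chr6:121210696-121226854, Tubb4b at chr2:25222160-25224702, Tubb5 at chr17:35833921-35838306 and Tubb6 at chr18:67390717-67402749. Near-identical copies could have lost reads, since the authors counted only alignments of sufficient mapping quality. Of all 100-base windows in the transcripts, Tuba1b shared 61.7% with a gene at another locus, Tuba1a 50.0%, Tuba1c 46.0%, Tubb2a 36.9%, Tubb2b 26.01% and Tubb4b 20.98%. Tuba4a, Tuba8, Tubb5 and Tubb6 shared none, so their levels are the least open to this loss. The exons of Tuba4a overlap those of Stk16 on the other strand over 1379 bases, and the sources used here do not say whether counting used the strand. Stk16 itself was at 19.4 ± 1.59 normalized CPM in controls and 19.1 ± 0.716 in mutants (SD, n = 4 each), far below Tuba4a.

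Total counts ran from 33407430 to 48832814 per mouse. Normalized CPM, which are counts divided by the TMM-scaled size of a library and put on a common scale, are given as mean ± SD over 4 mice, and the mutant mice differ from controls in TMM factor (1.04 to 1.10 against 0.91 to 0.96). Fold changes, their standard errors (SE) and adjusted p-values come from edgeR's quasi-likelihood test with Benjamini-Hochberg adjustment over 14001 tested genes, and a gene was called when its adjusted p was under 0.05 and its log2 fold change at least 0.58 in either direction. The slow myosin heavy chain Myh7 was at 6014 ± 263 normalized CPM in controls and 4193 ± 391 in mutants (log2 fold change -0.52, short of the threshold). The myosin heavy chain Myh2 was more abundant, at 9753 ± 611 and 6343 ± 496, and was called lower (log2 fold change -0.62). Total Dnm2, which adds the reads of wild-type and mutant alleles, was at 66.3 ± 4.74 and 73.4 ± 2.43 (log2 fold change 0.15, SE 0.07, adjusted p = 0.091).

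Tubulin messages changed in composition in Dnm2 wt/K562E soleus. Among beta-tubulins, Tubb6 rose 3.53-fold, and Tubb4b, Tubb5 and Tubb2b rose by smaller factors. Among alpha-tubulins, Tuba8 fell 2.15-fold, Tuba1b and Tuba1c rose, and the most abundant member, Tuba4a, did not pass the test. In all, 6 of 10 members were higher at an adjusted p under 0.05, against 22.2% of all tested genes, and 1 was lower, against 21.7%. With the fold change threshold, 3 members (Tubb6, Tuba1b and Tubb2b) were called higher and 1 (Tuba8) lower, against 12.9% and 7.85% of all tested genes. The genotypes did not overlap in 5 members, against 41.2% of all tested genes. The median log2 fold change was 0.46 over the members, 0.09 over the alpha and 0.52 over the beta genes, and 0.01 over all tested genes.

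**Figure D1:**
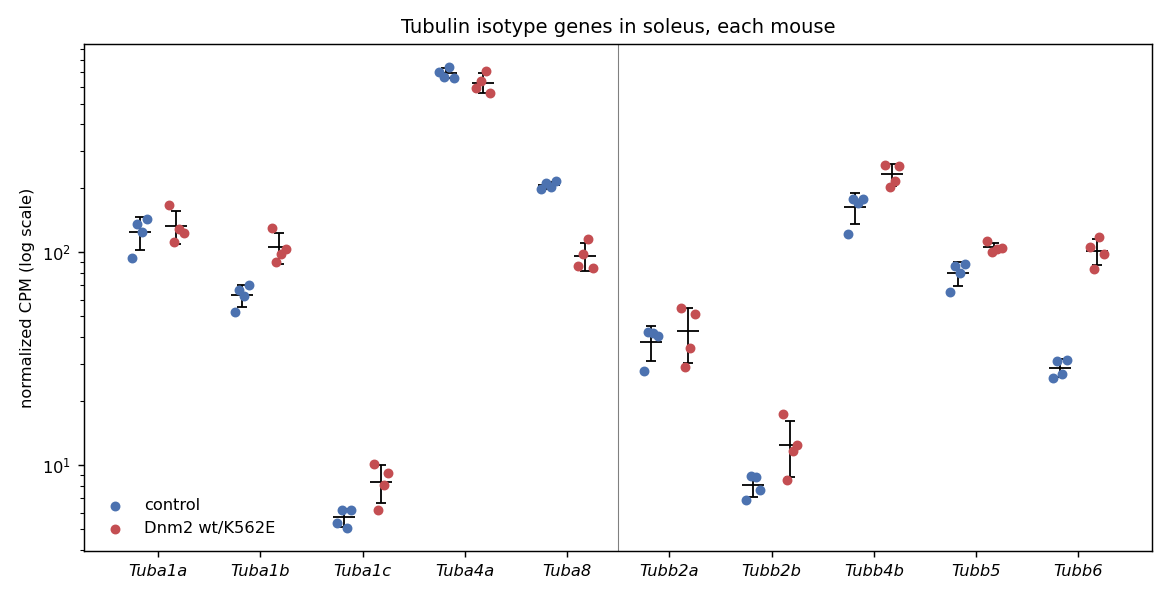
Normalized CPM of each tubulin gene (log axis) in each of 4 control (blue) and 4 Dnm2 wt/K562E (red) mice, with alpha members left and beta members right of the line. Black bars give mean ± SD. Tubb6 lies between 25.8 and 31.2 in controls and between 83.7 and 117.6 in mutants, Tuba8 between 198 and 216 and between 84.3 and 115.8.

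Tuba8 encodes an alpha-tubulin known from muscle, heart and testis. Its level was 198, 212, 204 and 216 normalized CPM in controls 1 to 4 and 86.5, 98.5, 116 and 84.3 in mutants 1 to 4. Every mutant lay below every control, and the highest mutant value was far from the lowest control value. The means were 207 ± 7.87 and 96.3 ± 14.4 (SD, n = 4 each), with a log2 fold change of -1.11 (SE 0.09, adjusted p = 7.81e-06, edgeR quasi-likelihood test). Controls varied little for this gene, and leaving out any mouse kept it called lower.

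Tuba1b encodes a ubiquitous alpha-tubulin that is prominent in dividing and growing cells. In controls it was at 52.8, 66.3, 62.3 and 70.3 normalized CPM and in mutants at 130.7, 89.7, 97.9 and 103.9. The genotypes did not overlap, and mutant 1 was the highest. The log2 fold change was 0.75 (SE 0.12, adjusted p = 5.59e-04, edgeR quasi-likelihood test).

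Tuba1a, known as the main alpha-tubulin of developing neurons, lies next to Tuba1b in the chromosome 15 cluster. Its level was 94.1, 136, 124 and 143.5 in controls and 168, 112, 128 and 124 in mutants, with broad overlap (log2 fold change 0.09, SE 0.14, adjusted p = 0.624). Per kilobase of exon, Tuba1a stood 2.05 ± 0.131 times above Tuba1b in controls and 1.31 ± 0.0531 times in mutants (SD, n = 4 each). This ratio was between 1.86 and 2.14 in controls and between 1.24 and 1.36 in mutants, so that the mice of each genotype lay closer together in it than in either gene alone. Divided by 100-base windows found at no other locus, the mean ratio was 1.63 in controls and 1.04 in mutants, which ran from 0.985 to 1.08. The genotypes did not overlap in this ratio with any of the lengths tried, and it was not tested.

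Tuba1c was a minor alpha-tubulin, at 5.36, 6.18, 5.08 and 6.18 normalized CPM in controls and 10.1, 6.14, 8.09 and 9.16 in mutants. Mutant 2 lay within the range of the controls and the others above it. It rose by a log2 fold change of 0.55 (SE 0.16, adjusted p = 0.0144, edgeR quasi-likelihood test), short of the fold change threshold.

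Tuba4a, the alpha-tubulin whose gene encodes no terminal tyrosine and ends in glutamate, was the most abundant of the members by counts and per kilobase of exon. Controls were at 707, 669.9, 742 and 657 normalized CPM and mutants at 594.5, 639.9, 715 and 562.1. The genotypes overlapped, with mutant 3 above 3 of the controls. The log2 fold change was -0.14 (SE 0.08, adjusted p = 0.169), and its sign turned to 0.07 when libraries were scaled by their size alone.

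Tubb6 is a beta-tubulin of low abundance in adult muscle fibres that is known to rise in regenerating and dystrophic muscle. It was at 25.8, 30.95, 26.8 and 31.2 normalized CPM in controls and at 106, 83.7, 118 and 97.9 in mutants. The lowest mutant stood well above the highest control, and mutant 3 was the highest. The means of 28.7 ± 2.78 and 101.4 ± 14.3 (SD, n = 4 each) gave a log2 fold change of 1.82 (SE 0.11, adjusted p = 1.05e-06, edgeR quasi-likelihood test). This was the largest change among the 10 members, and the range over the alternatives was 1.74 to 2.03.

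Tubb4b, a widely expressed beta-tubulin and a major component of cilia, was the most abundant beta member. Its level was 122.5, 178.7, 170.4 and 178.4 normalized CPM in controls and 258.5, 203, 216 and 255.5 in mutants. All mutants lay above all controls, and control 1 was low. It rose by a log2 fold change of 0.52 (SE 0.12, adjusted p = 0.00602, edgeR quasi-likelihood test), short of the fold change threshold. Leaving out each mouse in turn gave from 0.40 (without control 1) to 0.58 (without mutant 2).

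Tubb5, the ubiquitous beta-tubulin of growing tissues, was at 65.0, 86.0, 79.8 and 88.1 normalized CPM in controls and 113, 100.8, 103.5 and 105 in mutants. The mutants lay closely together and above all controls, of which control 1 was again the lowest. The log2 fold change was 0.41 (SE 0.09, adjusted p = 0.00426, edgeR quasi-likelihood test), likewise below the fold change threshold. With each mouse left out in turn it was from 0.31 (without control 1) to 0.45 (without control 4).

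The neighbouring genes Tubb2a and Tubb2b, known for their expression in the nervous system, gave different results. Tubb2b was scarce, at 6.85, 8.88, 8.82 and 7.63 normalized CPM in controls and 17.4, 8.53, 11.6 and 12.4 in mutants. Mutant 2 lay within the controls and mutant 1 stood highest. The log2 fold change of 0.63 (SE 0.19, adjusted p = 0.0192, edgeR quasi-likelihood test) passed both thresholds, but without control 1 it was 0.55, and without mutant 1 it was 0.43 with an adjusted p of 0.0505. Tubb2a was at 27.6, 42.1, 42.0 and 40.5 in controls and at 54.6, 28.8, 35.6 and 51.3 in mutants, with mutants on either side of the controls (log2 fold change 0.16, SE 0.20, adjusted p = 0.544). Whether Tubb2a and Tubb2b differ in their change was not tested.

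**Figure D2:**
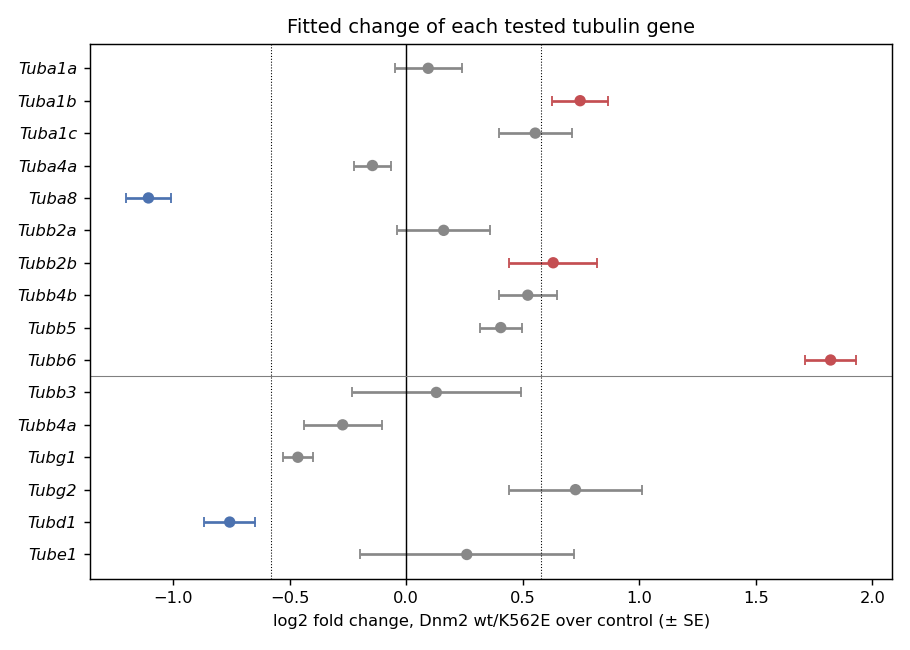
Log2 fold change of Dnm2 wt/K562E over control mice for each tested tubulin gene, points with bars of ± SE, the 10 members above and the other tested tubulins below the horizontal line. Red marks genes called higher, blue genes called lower and grey genes not called, with dotted lines at the fold change threshold of 0.58. Tubb6 at 1.82 and Tuba8 at -1.11 lie farthest from 0.

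Genes of other cell types moved in the same samples. For comparison, 22.2% of all tested genes were higher and 21.7% lower at an adjusted p under 0.05. All 7 macrophage markers passed the test and were higher, and their summed level was 72.8 to 135.5 normalized CPM in controls and 179 to 296 in mutants. Of 6 fibroblast markers 5 rose and 1 (Ly6a) fell (1828 to 2857 against 3963 to 5146 in sum), and 5 of 6 tendon markers rose (327 to 737 against 934 to 1292). Among 6 embryonic myosin and myogenic genes, 3 rose and 1 fell, and the sum was 69.8 to 84.1 in controls and 546 to 812 in mutants. By contrast, all 5 endothelial markers fell (862 to 900.2 against 616 to 705), as did 7 of 8 genes listed for slow and oxidative fibres (36740 to 40660 against 21530 to 24400). That list and its sum include Ckm, the muscle creatine kinase, which is not particular to slow fibres (9375 ± 832.5 against 4629 ± 541.5). Of 6 markers of dividing cells 1 rose (5.33 to 13.2 against 12.5 to 23.1), and of 4 tested markers of Schwann cells and axons 1 fell (154.6 to 174 against 129.5 to 160.4). Both counts are near the shares of all tested genes. The markers of dividing cells had a median log2 fold change of 0.79, against 0.01 over all tested genes, and the genotypes overlapped in each marker. With edgeR's exact test and with DESeq2, 2 of them rose. With libraries scaled by size alone, 2 endothelial markers fell, 3 markers of dividing cells rose, and neither Ly6a nor any Schwann cell or axon marker passed. Ly6a did not pass with edgeR's exact test either. No marker was at 0 in all mice. Tubulins are expressed in all these cells, and the part of each cell type in the tubulin changes was not tested. In these bulk samples, a change in the number of cells of a type and a change in RNA per cell cannot be told apart.

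Levels were next compared between the members per kilobase of exon, as normalized RPKM. In controls the order was Tuba4a (187.5 ± 10.4), Tuba8 (91.6 ± 3.48), Tubb4b (77.8 ± 12.9), Tuba1a (69.1 ± 12.1), Tuba1b (33.5 ± 4.01), Tubb5 (24.0 ± 3.13), Tubb2a (23.6 ± 4.34), Tubb6 (11.8 ± 1.14), Tubb2b (3.51 ± 0.429) and Tuba1c (2.49 ± 0.247). Only the neighbours Tubb4b and Tuba1a, and Tubb5 and Tubb2a, had overlapping ranges over the mice. In mutants, Tuba4a (169.6 ± 17.9) was still first and Tubb4b (112 ± 13.4) second. They were followed by Tuba1a (73.7 ± 13.3), Tuba1b (56.3 ± 9.48), Tuba8 (42.5 ± 6.38) and Tubb6 (41.6 ± 5.87), of which each overlapped the next. Tubb5 (31.7 ± 1.58), Tubb2a (26.5 ± 7.68), Tubb2b (5.44 ± 1.60) and Tuba1c (3.66 ± 0.745) came last, and Tubb5 overlapped Tubb2a as did Tubb2b with Tuba1c. With exon length, Tuba8 thus stood at rank 2 in controls and rank 5 in mutants, and Tubb6 at ranks 8 and 6, past Tubb5 and Tubb2a. These ranks depend on the length. Divided by 100-base windows found at no other locus, Tuba1a stood above Tuba8 in controls. With no division by length, mean Tubb6 in mutants (101.4 normalized CPM) did not pass Tubb5 (105.6).

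The relations between pairs of isotypes turned over in single mice as well. The ratio of Tuba8 to Tuba1b in RPKM was 3.11, 2.65, 2.71 and 2.54 in controls and 0.548, 0.910, 0.980 and 0.672 in mutants. Tuba8 exceeded Tuba1b in every control and in no mutant. The ratio of Tubb6 to Tubb5 was 0.542, 0.491, 0.459 and 0.484 in controls and 1.28, 1.13, 1.55 and 1.27 in mutants, so that Tubb6 exceeded Tubb5 in every mutant and in no control. Which of a pair stood higher depended on the length used, although in both pairs the genotypes did not overlap with any of the lengths tried. Divided by 100-base windows found at no other locus, Tuba8 over Tuba1b was 0.998 to 1.223 in controls (above 1 in 3 of them) and 0.2155 to 0.3854 in mutants, and by windows found in no other gene 1.04 to 1.27 and 0.224 to 0.4006. With no division by length, Tuba8 exceeded Tuba1b in 2 mutants and Tubb6 exceeded Tubb5 in 1. These ratios are descriptions and were not tested.

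Isotype shares were computed per mouse as the RPKM of a member over the sum of its family. Tuba8 made up 24.2%, 24.1%, 22.8% and 24.3% of the alpha members in controls and 10.4%, 13.2%, 13.8% and 11.8% in mutants. Tuba1b made up 7.79% to 9.55% in controls and 14.1% to 19.1% in mutants, and Tuba1c 0.563% to 0.696% and 0.815% to 1.26%. These shares did not overlap between genotypes, whereas those of Tuba4a (48.9% ± 3.56 and 49.1% ± 4.04) and Tuba1a (17.9% ± 2.60 and 21.3% ± 3.01) did. Between the genotype means, the share of Tuba8 was lower by 11.6 percentage points and that of Tuba1b higher by 7.57 points. Tuba4a and Tuba8, which encode no terminal tyrosine, together made up 77.1%, 70.7%, 73.6% and 69.5% of the alpha members in controls and 54.3%, 65.7%, 65.8% and 59.6% in mutants.

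Among the beta members, Tubb6 made up 8.46% ± 0.926 in controls and 19.2% ± 2.55 in mutants (SD, n = 4 each), with 9.73%, 8.24%, 7.51% and 8.36% in controls and 17.95%, 18.7%, 22.97% and 17.4% in mutants. Every mutant had a larger share than every control. Tubb4b remained the largest beta member, at 55.2% ± 0.912 and 51.5% ± 1.76, and with exon length its share was lower in every mutant although its level was higher. The share of Tubb2a was 15.7% to 17.8% in controls and 9.76% to 14.0% in mutants, that of Tubb5 16.4% to 17.9% and 13.7% to 16.5%, and that of Tubb2b 2.17% to 2.74% and 2.03% to 3.12%. Shares within a family add to a fixed total, so a gain of one member lowers the others even where their levels do not fall. No share was tested.

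**Figure D3:**
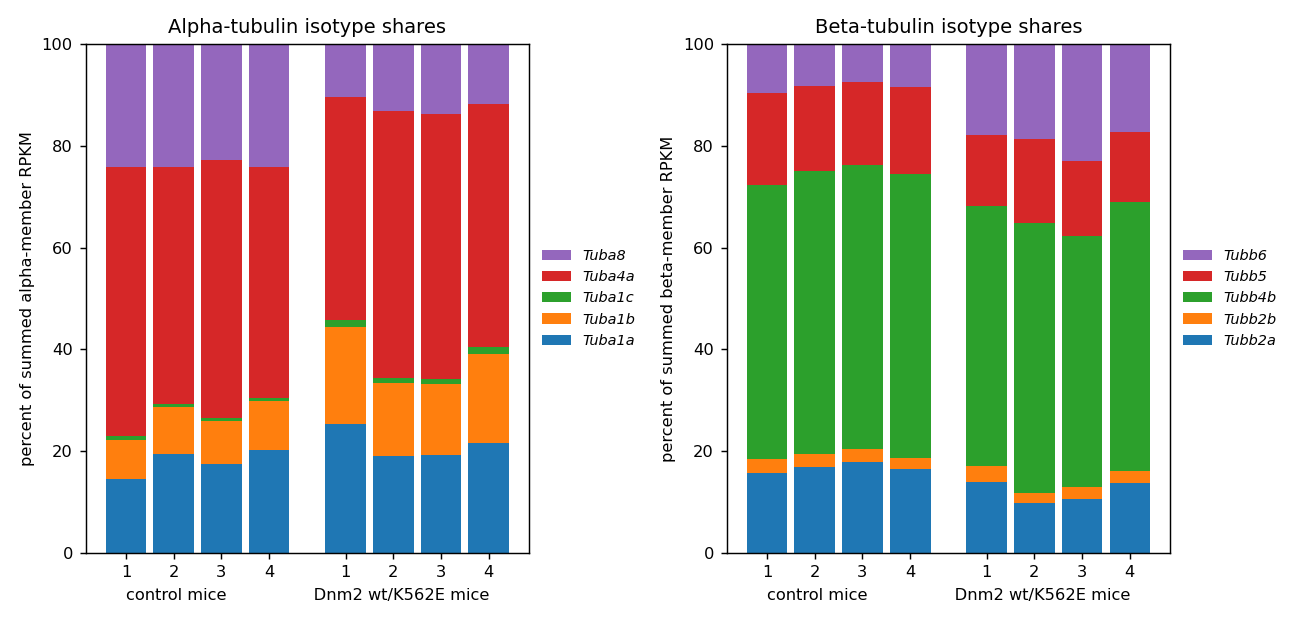
Share of each member in the summed normalized RPKM (percent) of the alpha (left) and beta (right) members, with 1 bar per mouse. In every mutant mouse the Tuba8 segment is smaller (10.4% to 13.8%, against 22.8% to 24.3% in controls) and the Tubb6 segment larger (17.4% to 22.97%, against 7.51% to 9.73%).

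The shares depend on the length by which counts are divided. When levels were divided by the number of 100-base windows found in no other gene, Tuba8 made up 15.99% of the alpha members in controls and 7.46% in mutants, and Tuba1a (31.02% and 33.15%) stood above Tuba8 in both genotypes. Tuba4a and Tuba8 together then made up 54.0% and 41.9%, and Tubb6 made up 6.88% and 16.1% of the beta members. The Tubb4b share then overlapped between the genotypes (54.4% to 56.0% in controls and 51.6% to 55.4% in mutants), as it did with windows found at no other locus.

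The summed level of the 5 alpha members was 361, 388, 395 and 393 normalized RPKM in controls and 366, 329, 371 and 317 in mutants. The genotypes overlapped, since control 1 lay below mutants 1 and 3. The 5 beta members summed to 109, 154, 146.5 and 153 in controls and 243, 183.5, 210.1 and 231 in mutants, and all mutants lay above all controls. The ratio of alpha to beta was 3.31, 2.52, 2.69 and 2.56 in controls and 1.51, 1.79, 1.77 and 1.37 in mutants. Over all 10 genes the sum was 1412 ± 72.1 normalized CPM in controls and 1466 ± 91.0 in mutants (SD, n = 4 each). The genotypes overlapped in it under TMM scaling. TMM factors were higher in mutants (1.04 to 1.10 against 0.91 to 0.96), which lowers their sums relative to scaling by library size alone. Sums under that scaling are not given here, so whether the overlap holds with it is not shown. None of the sums was tested.

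**Figure D4:**
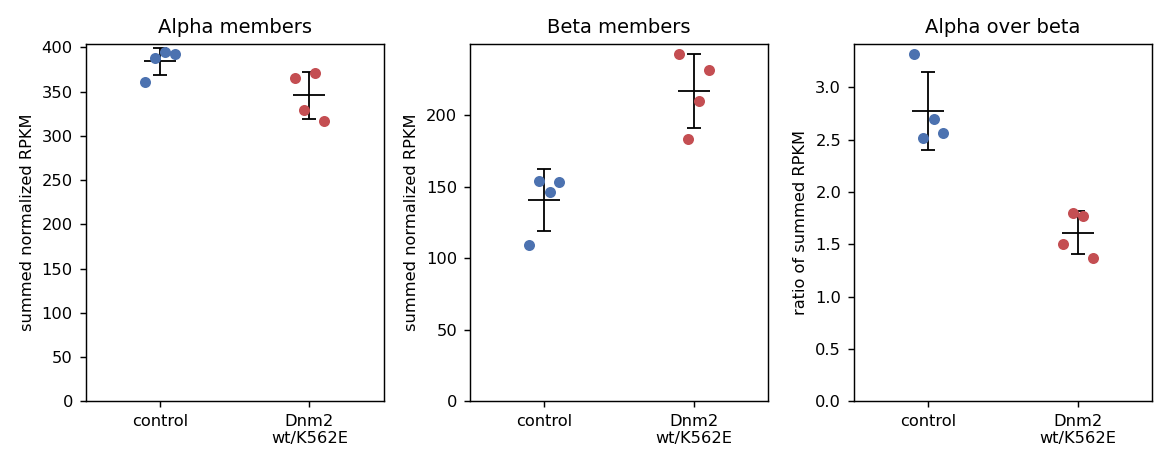
Summed normalized RPKM of the alpha members (left) and of the beta members (middle) and the ratio of alpha to beta (right), each starting at 0, for every control (blue) and Dnm2 wt/K562E (red) mouse, with mean ± SD in black. The beta sum is 141 ± 21.4 in controls and 217 ± 26.1 in mutants, and the ratio is lower in every mutant (1.37 to 1.79) than in every control (2.52 to 3.31).

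Of 10 other tubulin genes that were counted, 6 were tested. Delta-tubulin Tubd1, a protein of centrioles, was called lower (7.39 ± 0.519 against 4.37 ± 0.203 normalized CPM, log2 fold change -0.76, SE 0.11, adjusted p = 2.57e-04, edgeR quasi-likelihood test). With libraries scaled by their size alone, its log2 fold change was -0.55 and it was no longer called. Gamma-tubulin Tubg1, which nucleates microtubules, also fell (26.6 ± 0.859 against 19.3 ± 0.760, log2 fold change -0.46, adjusted p = 1.87e-04), short of the fold change threshold. Its paralog Tubg2 was scarce and did not pass (1.19 ± 0.348 against 1.97 ± 0.503, log2 fold change 0.73, adjusted p = 0.061 in the quasi-likelihood test), although it was called higher with edgeR's exact test and with DESeq2. The neuronal beta-tubulin Tubb3 (0.911 ± 0.368 and 1.01 ± 0.340) and epsilon-tubulin Tube1 (0.606 ± 0.256 and 0.725 ± 0.359) were scarce, and the oligodendrocyte and neuronal Tubb4a (4.04 ± 0.408 and 3.34 ± 0.603) did not pass either, with adjusted p-values of 0.796, 0.674 and 0.21. Tuba3a, Tuba3b, Tubal3 and the platelet beta-tubulin Tubb1 had from 0 to 19 counts in any mouse and were not tested.

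The genes that fold, modify, bind, cut and move along microtubules were read from the same fit. Of 116 listed genes 111 were tested, 24 were higher and 14 lower at an adjusted p under 0.05, and 10 were called higher and 1 lower with the fold change threshold. At an adjusted p under 0.05 this was 21.6% and 12.6% of the listed genes tested, against 22.2% and 21.7% of all tested genes, and with the fold change threshold 9.01% and 0.901%, against 12.9% and 7.85%. With libraries scaled by size alone, which put the median of all tested genes at a log2 fold change of 0.22, 18 were called higher.

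No gene of the folding lists passed the test upward, where 22.2% of all tested genes did and 21.7% passed it downward. None of the 8 subunits of the chaperonin CCT, which folds tubulin, passed edgeR's quasi-likelihood test at an adjusted p under 0.05, nor with the exact test or DESeq2, while 1 (Cct3) was higher at an unadjusted p under 0.05. Their median log2 fold change was 0.02. Under scaling by library size alone all 8 were higher, with a median of 0.23, about the shift of all genes. Of 6 subunits of prefoldin, which hands nascent chains to CCT, 4 fell (Pfdn1, Pfdn2, Pfdn6 and Vbp1), with a median of -0.27 over the list, but under that scaling 1 rose and 1 fell. Among 8 cofactors and regulators of tubulin, only Arl2, a small GTPase that works with the cofactors, passed and was lower (log2 fold change -0.29, adjusted p = 0.0042), but under scaling by library size alone 7 of the 8 were higher and none lower. Ttc5, the autoregulation factor, was at 7.80 ± 0.961 and 8.61 ± 0.720 normalized CPM (log2 fold change 0.14, adjusted p = 0.359).

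Of 21 tested genes that modify tubulin tails, 6 rose and 2 fell, against 22.2% and 21.7% of all tested genes. With libraries scaled by size alone, 9 rose and none fell (edgeR quasi-likelihood test). Ttl, the ligase that restores the terminal tyrosine, was 25.1 ± 1.99 in controls and 34.1 ± 2.45 in mutants without overlap (log2 fold change 0.44, SE 0.08, adjusted p = 0.00106, edgeR quasi-likelihood test), short of the fold change threshold. The 3 genes called higher were Ttll1 (log2 fold change 1.26, 4.79 ± 0.667 against 11.5 ± 0.470), a glutamylase of tubulin tails, Vash2 (0.91, 1.68 ± 0.705 against 3.15 ± 0.914), a carboxypeptidase that removes the terminal tyrosine, and Ttll12 (0.78, 11.4 ± 1.222 against 19.7 ± 1.41), a member of the tyrosine ligase-like family. Genes that restore the tyrosine and that remove it were thus both among those that rose. For removal this rests on Vash2 alone, at a low level and an adjusted p of 0.0422 in the quasi-likelihood test. Vash1, another carboxypeptidase of this kind, fell (-0.49, adjusted p = 0.0121 in the quasi-likelihood test, a fall that did not pass with libraries scaled by size alone).

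Of 23 tested microtubule-associated and end-binding proteins, 8 rose and 3 fell, and 4 were called higher, where all tested genes gave 22.2%, 21.7% and 12.9%. Scaling by library size alone gave 18 that rose, 1 that fell and 8 called higher. The largest changes were those of Dclk1 (log2 fold change 1.55), a doublecortin-like kinase, Map1a (1.34, 39.4 ± 4.23 against 99.7 ± 4.44) and Map1b (1.13, 31.3 ± 2.41 against 68.4 ± 5.87), which bind along the microtubule lattice. Among 9 destabilizing and severing proteins, the severing ATPase relative Fignl1 was called higher at a very low level (1.21, 0.382 ± 0.124 against 0.899 ± 0.456). Stmn2, a tubulin-binding stathmin known from neurons, was called lower (-1.32, 14.8 ± 3.92 against 5.89 ± 0.430, adjusted p = 1.66e-04 in the quasi-likelihood test).

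Of 23 genes of kinesin-1, dynein and dynactin, 7 rose and none fell in edgeR's quasi-likelihood test, its exact test or DESeq2, while 1 (Dctn6) was lower at an unadjusted p under 0.05. Over all tested genes 22.2% rose and 21.7% fell, and with libraries scaled by size alone 18 of these 23 rose. The dynein light intermediate chain Dync1li1 was called higher (log2 fold change 0.74, 31.1 ± 1.88 against 51.8 ± 3.38), as was the dynein intermediate chain Dync1i1 at a very low level (1.86, 0.104 ± 0.0750 against 0.399 ± 0.182). Of 13 nucleation genes 2 rose and 3 fell in the quasi-likelihood test (4 fell with edgeR's exact test and with DESeq2), and none was called with any of these. With libraries scaled by size alone, 5 rose, 1 fell and 1 was called higher.

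**Figure D5:**
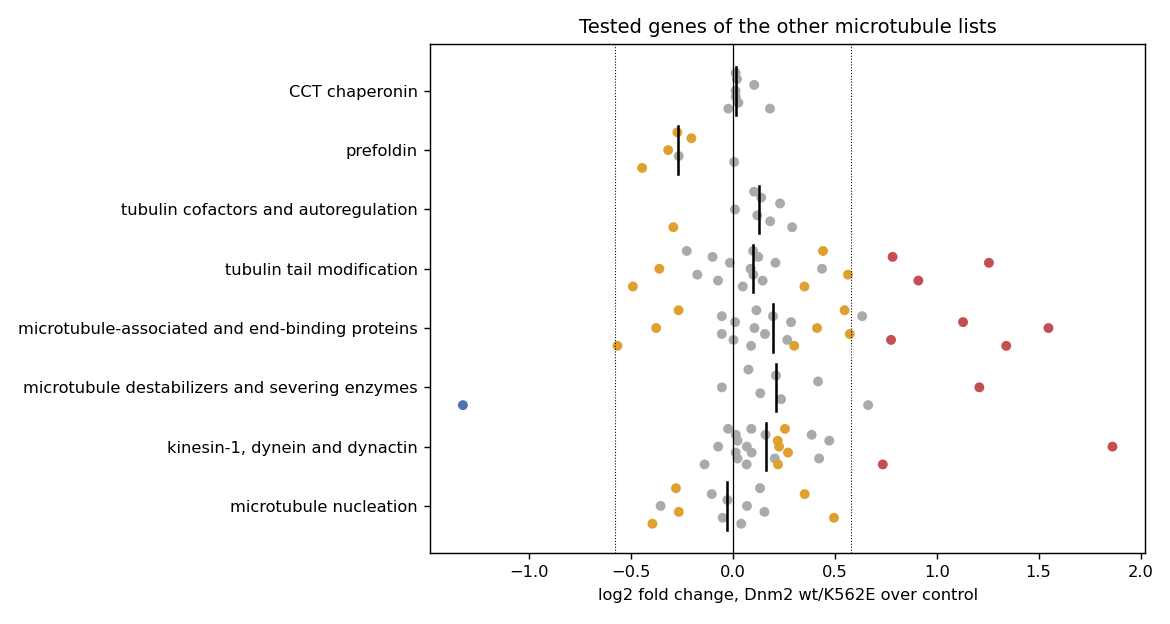
Log2 fold change of Dnm2 wt/K562E over control mice for the 111 tested genes of the other microtubule lists, 1 point per gene, with the vertical position within a list only spreading the points. Red and blue mark genes called higher and lower, orange genes with an adjusted p under 0.05 short of the fold change threshold of 0.58 (dotted lines), grey the others, and black bars the list medians. The CCT genes lie close to 0 with a median of 0.02, and the prefoldin genes have a median of -0.27.

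Tubb6 was the member with the largest change, and the 5 tested genes with the most similar log2 CPM over the 8 mice were Cacng1 (Pearson's r = 0.994), the gamma subunit of the muscle calcium channel, Nup93 (0.994), a nuclear pore protein, Camk2d (0.992), a calcium-dependent kinase, Bean1 (0.992) and Ggh (0.992), a folate hydrolase. All 5 were higher in mutants, by log2 fold changes of 0.57 (Ggh) to 1.63 (Bean1). That direction follows from choosing them by their likeness to Tubb6. The correlations hold the difference between the genotypes, and after the genotype means were removed they were 0.697 to 0.819. The same choice of genes favours high values here too. All 8 values come from the same libraries and share their depth and scaling.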

How the data were processed

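Soleus RNA of 4 control and 4 Dnm2 wt/K562E mice was measured by RNA-seq. The authors deposited whole-number counts per Ensembl gene and mouse, without normalization. Per the labels and methods, reads were trimmed (Trimmomatic 0.33), aligned to GRCm38.p5 (STAR 2.5.1b) and counted (featureCounts), leaving out alignments of low mapping quality and counting a read over several genes for each of them. The strand setting is not given in the sources used here, and they name a poly A and a total RNA kit. Groups follow the labels.

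Of the 22880 gene IDs, 22647 matched GENCODE M21. Tests used edgeR 4.0.16 in R 4.3.3, with filterByExpr (minimum count 10, total 15), TMM, the quasi-likelihood F-test and Benjamini-Hochberg adjustment over 14001 genes. Standard errors were derived from the F statistics. RPKM used merged exon length. Sums and shares had no test. The libraries of any 2 mice of one genotype differed beyond sampling noise (chi-square over degrees of freedom at least 13.0). This value was highest in the pairs with control 1 (37.9, 43.5 and 57.8). On simulated counts of this comparison (13915 genes, log2 fold change 1.5 in 198), 96% of the changed genes were called, with 7 false calls.

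Members and lists were chosen with earlier results of these data known. The text names all members and other tubulins, up to 3 called genes in each direction with the largest change per list, Ttc5, Ttl and the 5 genes most like the member that changed most. Myh7, Myh2, Ckm, Stk16, Vash1, Cct3, Dctn6, Ly6a, Arl2 and the prefoldin genes that fell were named after their values were seen, and so were the pairs of isotypes set in ratio. The alternatives were median-ratio factors, library size alone, other filters, edgeR's exact test, DESeq2 1.42.0, replicate blocks, leaving out mitochondrially encoded genes or each mouse, no fold change threshold and other lengths. Division by windows found at no other locus was chosen after seeing the data. Protein sequences were not used, and the coding ends of 4 members are not reported here.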

Additional observations from a re-analysis of the deposited data

Results flagged for a closer look

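In 5 of 52 sets of 4 values examined (members' levels, shares and sums by genotype), 1 mouse stood apart from the other 3 by Dixon's gap-to-range ratio (above its 95% critical value), where chance gives about 1 in 20. Of these, 4 were control 1. It had the lowest control level of Tubb2a (27.6 normalized CPM, the others 40.5 to 42.1) and of Tubb4b (122.5, the others 170.4 to 178.7), the lowest Tubb4b share (53.9% of the beta members, the others 55.5% to 55.8%) and the lowest beta sum (109 normalized RPKM, the others 146.5 to 154). Control 3 had the lowest Tuba8 share (22.8% of the alpha members, the others 24.1% to 24.3%). These values are linked, since the sum and the shares are made from the levels.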

How the results depend on the processing

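Tubb6 and Tuba1b stayed called higher and Tuba8 lower under each alternative run. With libraries scaled by size alone, 2865 genes were higher and 564 lower (1806 and 1099 with TMM), 6 members and 18 microtubule list genes were called higher, and Tuba4a turned to 0.068. Without a fold change threshold, 3103 genes were higher and 3036 lower, with 6 members higher. Leaving out each mouse in turn gave 1588 to 1970 higher and 1026 to 1208 lower genes, 2 to 5 members higher and 1 lower, and 9 to 12 microtubule list genes higher and 1 to 3 lower. Here 5 members were higher without mutant 2 (Tuba1c and Tubb4b joined), and the list genes that joined Stmn2 were Mapt and Vash1 without control 1 (3 lower), Mapt without mutant 3 and Vash1 without mutant 4 (2 lower each). Tuba1a turned to -0.026 without control 1 and to -0.0367 without mutant 1, in a range up to 0.167. Without one mouse the ratio of alpha to beta in mutants over that in controls was 0.558 to 0.621 (0.58 with all), the difference in Tubb6 share 9.55 to 11.4 and that of Tuba4a with Tuba8 -12.8 to -9.00 percentage points. Under other lengths these were 0.564 to 0.67, 9.26 to 11.6 and -13.6 to -7.86. Total Dnm2 was not called under any alternative, although its adjusted p was 0.0027 with library size alone.

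When the title number of each mouse entered as a replicate block, the counts were 1637 higher and 1036 lower genes, and 2 members were called higher, since Tubb2b (0.60, adjusted p = 0.0615) was lost. The number of the descriptions gave 1739, 1083 and 3 members. Same-numbered mice are different animals whose deviations correlated by -0.213 to 0.009 (titles) and -0.167 to 0.178 (descriptions), so the numbers were not taken as pairs. Depth limits Fignl1, Dync1i1, Tubb3 and Tube1, all under 1.1 normalized CPM.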
